A study of Mus musculus with 6 samples.

Results

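Nuclear receptors are transcription factors that bind DNA through zinc fingers and, in many members, carry a pocket for a small lipid-soluble ligand such as a steroid, retinoic acid, thyroid hormone or an oxysterol. Many of them bind as a pair with a retinoid X receptor and recruit coactivators or corepressors according to the ligand. In the mammary gland the receptors for oestrogen and progesterone are best known, while retinoic acid, vitamin D, thyroid hormone and glucocorticoid also act on the epithelium. The 42 genes described here are the nuclear receptor genes left after setting aside those that go with the oestrogen receptor programme or with the circadian clock. They were taken as a list of gene symbols, and 38 of the 42 were measured under their symbol among 22206 tested probe sets. Ppard, Nr1h2, Nr2e3 and Esrra have no row under their symbol and are not analysed here.

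RNA from 6 preparations of ER-negative luminal cells, among which are the progenitors of the milk-producing alveoli of the mammary gland, was hybridised to Affymetrix Clariom S Pico mouse arrays, with 3 Sox9 KO arrays and 3 WT arrays. The Sox9 KO mice carried floxed Sox9 on both alleles (Sox9 Fl/Fl) and the MMTV-iCre transgene, in which the mouse mammary tumour virus promoter drives Cre. The WT mice carried the same floxed alleles without Cre. All were females of 8 to 12 weeks in diestrus on a mixed C57BL/6J and FVB/NJ background, and each array came from a separate animal. The sort kept EpCAM-high, CD49f-low cells without Sca1 or lineage markers, and the Sox9 KO cells were further gated on ECFP, a reporter that Cre switches on. The MMTV promoter is not active in every mammary cell. Between these groups the deletion, Cre itself and the ECFP gate go together and cannot be told apart.

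Sox9, the deleted transcription factor gene, had little signal left in the Sox9 KO cells. It fell to a log2 signal of 6.73, 7.84 and 7.51 on the Sox9 KO arrays, against 11.60, 11.54 and 11.47 on the WT arrays, a difference of -4.18 (SE 0.27, adjusted p 0.00867 in limma). Where its probes lie relative to the deleted part is not known here. The sorted label was checked against markers: 9 of 10 ER-negative luminal markers and 8 of 8 luminal epithelial markers lay above the negative controls on all arrays of a genotype, while 0 of 6 measured ER-positive luminal markers did. However, 4 of these 6 (Cited1, Foxa1, Pgr and Prom1) lay above them on WT replicate 3. Among 10 basal markers 2, Krt14 and Trp63, lay above them on all 3 Sox9 KO arrays, and on 2 and 0 WT arrays. At an unadjusted p under 0.05, where 4.99% of all tested probe sets were lower and 4.28% higher in Sox9 KO, 5 of the 10 ER-negative luminal markers were lower (Itga2, Aldh1a3, Ltf, Csn3 and Mfge8) and 1, Gabrp, higher, with a median difference of -0.34. Of the 8 luminal markers 2, Cldn4 and Epcam, were lower and 0 higher, with a median of -0.23. The mean level of the ER-positive markers, in log2 units relative to the WT mean, was -0.77 to -0.53 on the Sox9 KO arrays, -0.57 to -0.54 on WT replicates 1 and 2 and 1.11 on WT replicate 3. On the same scale, cell cycle genes stood high on Sox9 KO replicate 1, at 3.59, against 0.11 to 1.11 on the other Sox9 KO arrays and -0.41 to 0.77 on the WT arrays. Basal markers were at 0.40, 0.81 and 0.77 in Sox9 KO and 0.23, -0.38 and 0.15 in WT, with 3 of 10 (Krt14, Trp63 and Krt17) higher at an unadjusted p under 0.05, against 4.28% of all probe sets. The median difference of the 10 was 0.19, with 7 means higher and 3 lower in Sox9 KO. The part of these marker shifts in the differences below was not tested.

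The first question was which receptors gave a signal above background in these cells. A receptor was counted as detected where its signal lay above the 95th percentile of the negative control probe sets of the same array on all 3 arrays of a genotype. That percentile was between 7.75 and 8.15 on the Sox9 KO arrays and between 7.87 and 8.58 on the WT arrays, and it is a strict bar, since 20.8% to 29.6% of all tested probe sets exceeded it on any one array. By this measure 9 of the 38 receptors were detected. Vdr, Rarg, Nr6a1, Rxrb and Nr2c2 were above the bar on all 6 arrays. Nr2f6 was above it on all 3 Sox9 KO arrays, and Rara, Nr4a3 and Thra on all 3 WT arrays. Rora, Nr4a1, Nr4a2, Nr3c1 and Nr3c2 exceeded it on 1 to 5 arrays but on all 3 of no genotype. The other 24 receptors were not above it on any array. Probe sets differ in how brightly they report the same amount of RNA, so a receptor below the bar is not well above background rather than absent, and the receptors are not ranked against each other by signal.

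**Figure D1:**
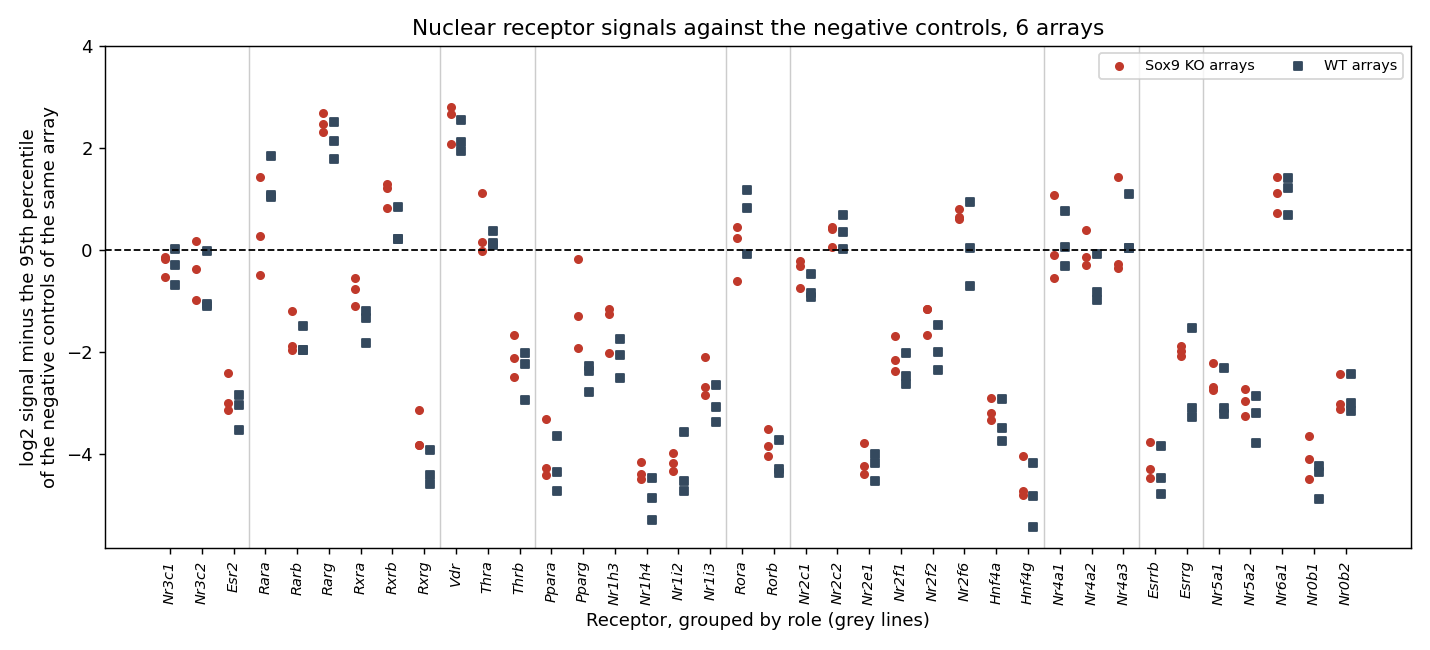
Log2 signal of each of the 38 receptors minus the 95th percentile of the negative control probe sets of the same array (vertical axis, log2 units), by receptor along the horizontal axis in groups of related role. Red circles are the 3 Sox9 KO arrays and dark squares the 3 WT arrays. Points over the dashed line lie above the percentile, as all 6 points do for Vdr, Rarg, Nr6a1, Rxrb and Nr2c2.

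The second question was which receptors differed between Sox9 KO and WT cells. The receptors with the clearest differences were Rara, a retinoic acid receptor, and Rora, an orphan receptor, both with lower signals in Sox9 KO, and Pparg, a fatty acid sensor, and Rxrg, a retinoid X receptor, both with higher but dim signals. None of the 38 passed an adjusted p under 0.05 in limma, where the smallest adjusted p of a receptor was 0.375 and 0.00901% of all tested probe sets passed. At an unadjusted p under 0.05 the fit counted 4 receptors, or 10.5%, against 9.26% of all tested probe sets. Rara and Rora were the 2 with lower signals (4.99% of all probe sets in that direction), and Pparg and Rxrg the 2 with higher signals (4.28%). A log2 difference of over 1 in size at the same p was reached by Rara and, at dim signals, Pparg, against 1.13% of all probe sets. The arrays of the genotypes did not overlap for 8 receptors, or 21.1%, against 14.1% of all probe sets, with Nr6a1, Rara, Rora and Nr0b2 lower and Nr4a2, Pparg, Rxrg and Nr1h4 higher in Sox9 KO. The shares at the unadjusted p were thus near the background of the whole table. With the methods' t-test on the same values, Rara, Rora and Pparg no longer passed an unadjusted p under 0.05, and the 3 receptors that did were Rxrg, Nr1h4 and Nr0b2. By that test 7.75% of all probe sets passed.

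Over the 38 receptors the median difference, Sox9 KO minus WT, was 0.02 on the log2 scale, against 0.007 over all probe sets, and the median size of the difference was 0.20 against 0.15. The Sox9 KO mean was lower for 15 receptors, higher for 22 and equal for Hnf4g. In bulk RNA, fewer cells of a type and less RNA per cell cannot be told apart. Low signals are compressed on such arrays, so a difference of a dim receptor may be understated.

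**Figure D2:**
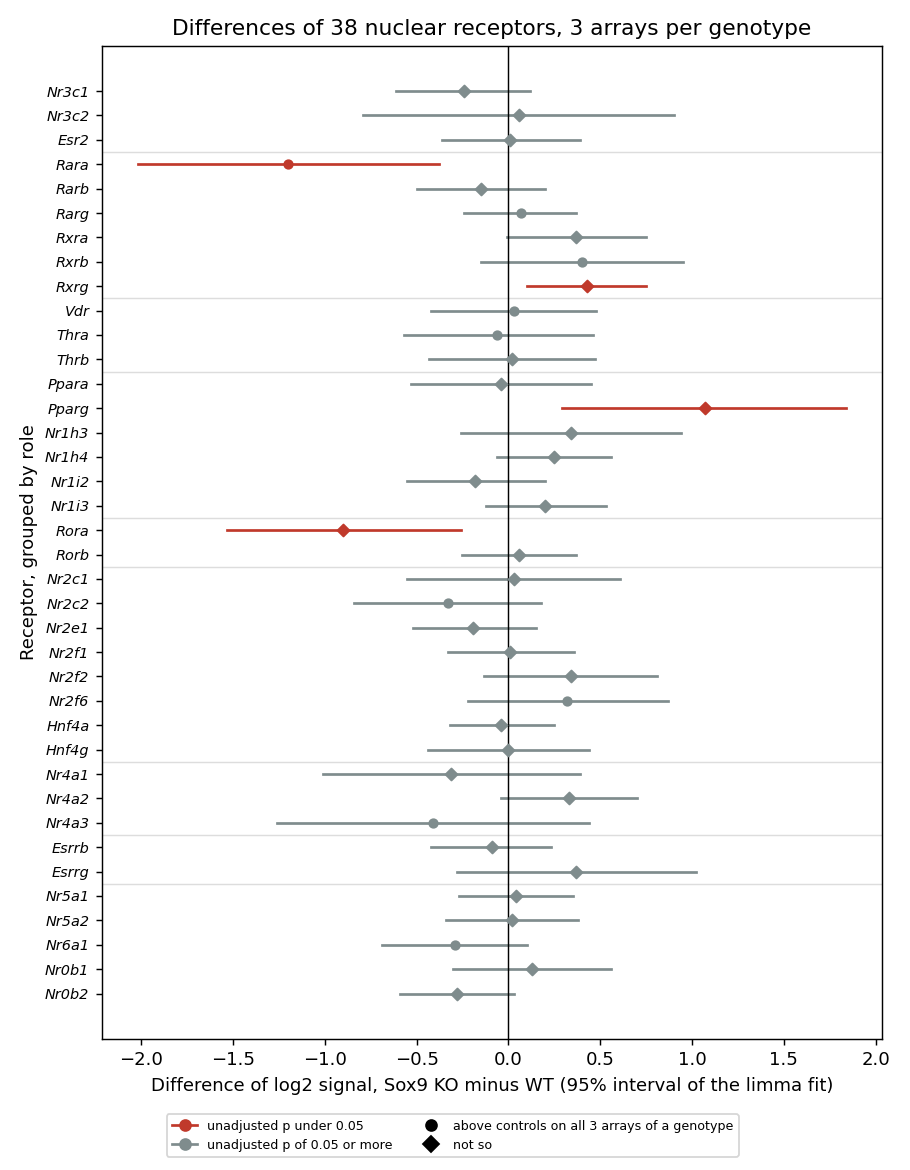
Difference of log2 signal, Sox9 KO minus WT (horizontal axis), for the 38 receptors listed by role from top to bottom, with 95% intervals from the limma fit over 3 arrays per genotype. Red marks an unadjusted p under 0.05, reached by Rara and Rora with negative and by Pparg and Rxrg with positive differences; circles mark receptors above the negative controls on all 3 arrays of a genotype and diamonds the others.

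Retinoic acid receptors pair with retinoid X receptors on DNA, where the pair represses target genes without ligand and activates them once retinoic acid is bound. All 6 genes of the group were measured. Rara, which encodes the alpha receptor, read 7.61, 8.41 and 9.18 in Sox9 KO and 9.65, 9.44 and 9.71 in WT. Every Sox9 KO array was below every WT array, and the Sox9 KO arrays were spread more widely, with replicate 1 below the negative control bar and replicate 3 near the WT arrays. The mean was 8.40 ± 0.79 in Sox9 KO and 9.60 ± 0.14 in WT (SD, n = 3 each). The difference was -1.20 (SE 0.35, 95% interval -2.02 to -0.38), or 2.30-fold lower, with an adjusted p of 0.375 in limma. Leaving out single arrays gave a range from -1.59 (Sox9 KO replicate 3 left out) to -0.80, reached when Sox9 KO replicate 1, the array with high cell cycle genes, was left out. Over all alternatives the adjusted p of Rara lay between 0.101 and 0.803, and its sign was the same in 15 of 15.

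Rarg, the gamma receptor gene, was above the bar on every array and nearly level, with 10.42, 10.62 and 10.43 in Sox9 KO and 10.37, 10.53 and 10.37 in WT. Its difference of 0.07 had a 95% interval of -0.24 to 0.37, and whether it is unequal to that of Rara was not tested. Rarb, the beta receptor gene and itself a classical retinoic acid target, averaged 6.32 ± 0.20 in Sox9 KO and 6.47 ± 0.12 in WT (SD, n = 3 each) and was not above the bar on any array. Its difference was -0.15 (SE 0.15), with overlapping arrays.

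Of the retinoid X receptors, the shared partners of many other receptors, Rxrb was the one above the bar on all arrays, at 9.32, 9.45 and 8.56 in Sox9 KO and 8.80, 8.62 and 8.71 in WT. Sox9 KO replicates 1 and 2 were above all WT arrays and replicate 3 below them, so the groups overlapped, and the difference was 0.40 (SE 0.23). It was 0.67 without Sox9 KO replicate 3 (adjusted p 0.152 in limma) and 0.23 without Sox9 KO replicate 2. Rxra averaged 7.19 ± 0.19 in Sox9 KO and 6.82 ± 0.21 in WT (SD, n = 3 each), below the bar on all arrays, a difference of 0.37 (SE 0.17). Rxrg read 4.27, 4.31 and 4.61 in Sox9 KO and 3.99, 3.98 and 3.94 in WT. The genotypes did not overlap, but all 6 signals were far below the bar, within the lowest 54.8% of the negative controls, so no fold is given. The difference on the log2 scale was 0.43 (SE 0.14, adjusted p 0.416 in limma), and 0.32 to 0.49 with single arrays left out. The means of all 3 retinoid X receptors were higher in Sox9 KO, as were those of 22 of the 38 receptors.

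**Figure D3:**
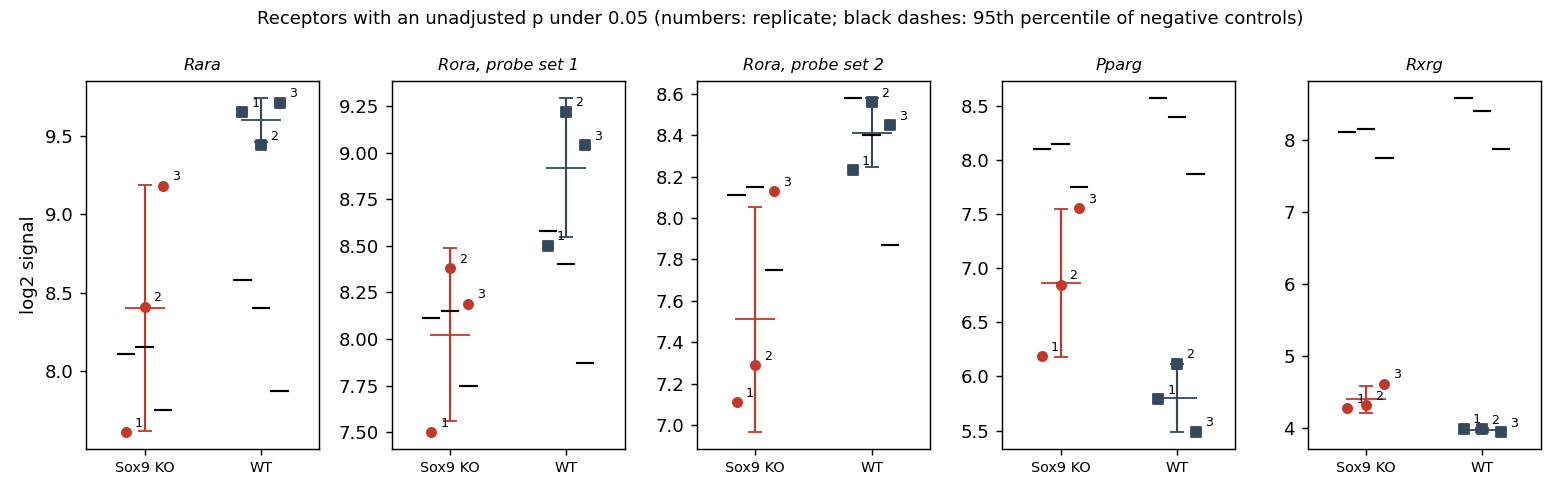
Log2 signal (vertical axis, a separate range in each panel) of Rara, of 2 probe sets of Rora, of Pparg and of Rxrg on each array, Sox9 KO on the left and WT on the right; digits give the replicate, horizontal lines and bars the mean ± SD of 3 arrays, and black dashes the 95th percentile of the negative controls of the same array. Every Sox9 KO array lies below every WT array for Rara and Rora and above for Pparg and Rxrg, and all arrays of Pparg and Rxrg lie under the dashes.

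Upstream sequences of 2 retinoic acid receptor genes are shown. The Rarb promoter holds the textbook retinoic acid response element, and Rara is the only detected receptor that was lower at an unadjusted p under 0.05. They are the 250 bases before the annotated start, 5′ to 3′ on the gene's strand, from RefSeq on GRCm38.p6, at chr14:16575477-16575726 (minus strand) for Rarb and chr11:98964622-98964871 (plus strand) for 1 of the 4 starts of Rara. Capitals mark the letters GGTTCANNNNNAGTTCA in Rarb, and ACAAAG or its reverse complement CTTTGT in Rara.
Rarb: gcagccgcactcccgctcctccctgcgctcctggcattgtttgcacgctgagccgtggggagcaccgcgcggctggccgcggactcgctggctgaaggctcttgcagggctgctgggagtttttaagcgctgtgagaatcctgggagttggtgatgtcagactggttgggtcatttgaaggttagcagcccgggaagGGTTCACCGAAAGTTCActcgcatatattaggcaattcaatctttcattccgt
Rara: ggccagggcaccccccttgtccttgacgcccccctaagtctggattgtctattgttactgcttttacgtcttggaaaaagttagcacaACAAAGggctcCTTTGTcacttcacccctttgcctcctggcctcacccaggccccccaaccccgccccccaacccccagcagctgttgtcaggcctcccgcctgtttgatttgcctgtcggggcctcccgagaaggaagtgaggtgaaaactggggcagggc

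The Rarb element is a direct repeat of a receptor core sequence with 5 bases between the copies, and it begins 53 bases before the start. Searched on both strands, its letters occurred in 2 of 32851 upstream windows of the same length, and in no other receptor's window. The letters searched were the spelling of the Rarb element itself, so its match was set in advance. Other spellings of the repeat were not searched. ACAAAG, a core letter run bound by SOX proteins, occurred in 16.5% of all windows and in 6 of the 54 windows of the 34 receptors matched to the table (11.1%). In the Rara window it stands once on each strand, the copies facing each other with 5 bases between them, the first 162 bases before the start. SOX9 and its relatives SOX8 and SOX10 are known to bind such facing copies as dimers. The facing arrangement, spelled ACAAAGNNNNNCTTTGT, was looked for after it had been seen in Rara, and occurred in 2 of the 32851 windows. The related letters ACAATG occurred in 10.7% of all windows and in 4 receptor windows (7.41%), Rarb among them. These are letter matches only, and binding was not measured here.

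Of 10 retinoic acid receptor target genes listed, 8 were measured, and 0 were lower and 0 higher at an unadjusted p under 0.05, with a median difference of -0.13. Only 3 of the 8, Crabp2, Dhrs3 and Tgm2, were above the bar on all arrays of a genotype, so most were not well above background. Crabp2, which carries retinoic acid to the receptors, averaged 12.32 ± 0.24 in Sox9 KO and 11.97 ± 0.18 in WT (SD, n = 3 each). Dhrs3, a retinaldehyde reductase that retinoic acid induces, averaged 10.08 ± 0.53 in Sox9 KO and 9.38 ± 0.50 in WT (SD, n = 3 each), a difference of 0.70 (95% interval -0.06 to 1.45). The retinoic acid-degrading enzymes Cyp26a1 and Cyp26b1 averaged 4.72 and 4.83 in Sox9 KO and 4.95 and 4.97 in WT.

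Vdr, the receptor for the active form of vitamin D, was above the bar on every array, with 10.19, 10.82 and 10.55 in Sox9 KO and 10.70, 10.34 and 10.42 in WT. The genotypes overlapped fully, and the difference was 0.03 (SE 0.19, 95% interval -0.42 to 0.48), or -0.12 to 0.20 with single arrays left out. Of its targets, 5 of 6 were measured and 0 passed an unadjusted p under 0.05 in either direction (median -0.10). Only 1 of the 5, Cd14, was above the bar on all arrays of a genotype, so most were not well above background. Cyp24a1, the enzyme that inactivates vitamin D and the receptor's best known target, averaged 7.73 ± 0.29 in Sox9 KO and 8.16 ± 0.97 in WT (SD, n = 3 each). It exceeded the bar only on WT replicate 2, at 9.28, with the other WT arrays at 7.51 and 7.70.

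Thra and Thrb encode the thyroid hormone receptors. Thra read 8.27, 8.13 and 8.87 in Sox9 KO and 8.67, 8.54 and 8.23 in WT, with overlapping arrays and a difference of -0.06 (SE 0.22) that was -0.28 to 0.09 with single arrays left out. Sox9 KO replicate 2 fell just short of the bar, which is why it was counted as detected in WT alone. Thrb averaged 5.90 ± 0.26 in Sox9 KO and 5.88 ± 0.26 in WT (SD, n = 3 each), below the bar throughout. Of the 6 thyroid hormone targets measured, 0 passed an unadjusted p under 0.05 in either direction, with a median difference of 0.05. Only 1 of the 6, Me1, was above the bar on all arrays of a genotype, so most were not well above background.

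Peroxisome proliferator-activated receptors sense fatty acids, and the gamma form, Pparg, is the chief regulator of fat cell differentiation. Pparg read 6.19, 6.85 and 7.56 in Sox9 KO and 5.79, 6.12 and 5.49 in WT. Every Sox9 KO array was above every WT array, with replicate 3 highest, yet none of the 6 was above the bar. The difference was 1.07 on the log2 scale (SE 0.33, 95% interval 0.29 to 1.84, adjusted p 0.40 in limma), and no fold is given because both genotypes were not well above background. It was 0.72 to 1.40 with single arrays left out, and the adjusted p lay between 0.259 and 0.795 over all alternatives. Pparg is also made by adipocytes and macrophages. Of 6 adipocyte markers, Fabp4 exceeded the bar on some arrays and Adipoq, Lep, Plin1, Cidec and Lpl on none, and the mean marker level relative to the WT mean was -0.41, -0.27 and 0.15 on the Sox9 KO arrays and 0.29, -0.25 and -0.04 on the WT arrays. The 6 myeloid markers exceeded the bar on no array, with mean levels of -0.26, -0.07 and 0.61 in Sox9 KO and 0.03, 0.02 and -0.05 in WT. Fibroblast markers were highest on Sox9 KO replicate 3 too (1.23, against -0.20 to -0.03 on the other Sox9 KO arrays and -0.20 to 0.34 on the WT arrays), and 3 of 8 of them exceeded the bar on any array. T and NK cell and B cell markers were also highest on Sox9 KO replicate 3 (0.47 and 0.29), above the bar on no array. Endothelial markers, likewise never above it, were at -0.53, -0.18 and 0.48 in Sox9 KO and 0.61, -0.39 and -0.21 in WT. WT replicate 1, highest for the adipocyte and endothelial markers, read 5.79 for Pparg. The part of other cell types was not tested. Without Sox9 KO replicate 3 the difference of Pparg was 0.72, and it was 1.40 with Sox9 KO replicate 1 left out.

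The Pparg gene has several starts, and both windows below hold the receptor core letters AGGTCA (capitals), shown because members of this family bind that sequence. They are the 250 bases before the start from RefSeq on GRCm38.p6, at chr6:115360894-115361143 and chr6:115362099-115362348, both on the plus strand.
Pparg, upstream start: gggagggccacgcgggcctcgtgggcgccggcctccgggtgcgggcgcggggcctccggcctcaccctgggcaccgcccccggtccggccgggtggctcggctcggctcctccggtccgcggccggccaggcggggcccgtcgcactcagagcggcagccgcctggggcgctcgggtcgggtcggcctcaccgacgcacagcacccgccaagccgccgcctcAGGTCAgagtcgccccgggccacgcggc
Pparg, downstream start: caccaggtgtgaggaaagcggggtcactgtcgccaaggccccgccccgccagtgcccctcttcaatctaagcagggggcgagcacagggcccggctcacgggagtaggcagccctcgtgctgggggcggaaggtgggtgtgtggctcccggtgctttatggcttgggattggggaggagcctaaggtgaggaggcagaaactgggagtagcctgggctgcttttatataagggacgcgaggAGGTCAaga

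The letters stand 28 bases before the upstream and 9 bases before the downstream of these starts. Searched on both strands, AGGTCA occurred in 10 of the 54 receptor windows (18.5%), those of Nr0b1, Nr1h4, Nr5a2, Nr6a1, Pparg, Rarg, Rxra, Rxrg and Thrb, and in 4607 of all 32851 windows. A match of 6 letters is frequent by its length, and it says nothing of which receptor binds there.

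Of 11 PPAR target genes, 8 were measured, with a median difference of 0.18. At an unadjusted p under 0.05, 0 were lower and 1 higher, against 4.99% and 4.28% of all probe sets. Cpt1a, which brings fatty acids into mitochondria for oxidation, was that gene, at 9.73, 10.01 and 9.69 in Sox9 KO and 9.63, 9.14 and 8.85 in WT, a difference of 0.60 (SE 0.21). Its Sox9 KO arrays were all above the WT arrays. Fabp4, a fatty acid carrier, varied most between animals, with 7.21, 8.15 and 10.11 in Sox9 KO and 10.91, 7.47 and 9.20 in WT. It was highest on WT replicate 1 and Sox9 KO replicate 3, where the mean of the endothelial markers was also highest. Which cells its signal came from was not tested.

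The other lipid and xenobiotic sensors were not above the bar on any array. Nr1h3, the liver X receptor alpha that senses oxysterols, averaged 6.51 ± 0.45 in Sox9 KO and 6.17 ± 0.32 in WT (SD, n = 3 each), a difference of 0.34 that was 0.11 to 0.56 with single arrays left out. Of 8 liver X receptor targets 7 were measured, 0 of them past an unadjusted p under 0.05 in either direction, with a median difference of -0.06. Ppara, which drives fatty acid oxidation in liver, averaged 3.99 in Sox9 KO and 4.03 in WT. The bile acid receptor Nr1h4 averaged 3.65 ± 0.07 in Sox9 KO and 3.40 ± 0.13 in WT (SD, n = 3 each), without overlap but among the dimmest 28.2% of the negative controls. The xenobiotic receptors Nr1i2 and Nr1i3 averaged 3.83 and 5.45 in Sox9 KO and 4.01 and 5.25 in WT.

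Rora encodes an orphan receptor that binds the same DNA elements as the REV-ERB repressors of the circadian clock and activates from them. On its brightest probe set it read 7.50, 8.38 and 8.19 in Sox9 KO and 8.50, 9.22 and 9.04 in WT. Each Sox9 KO array was below each WT array, although Sox9 KO replicate 2 and WT replicate 1 were close, and 2 arrays of each genotype exceeded the bar. The difference was -0.90 (SE 0.27, 95% interval -1.53 to -0.26), or 1.86-fold lower, with an adjusted p of 0.392 in limma.

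Rora had another 2 probe sets, which give a second look at the same RNA. The first of these read 7.11, 7.29 and 8.13 in Sox9 KO and 8.23, 8.56 and 8.45 in WT, again without overlap, with a difference of -0.90 (SE 0.26, adjusted p 0.374 in limma). The last was dim on every array, at 4.47 to 4.79 in Sox9 KO and 4.66 to 4.82 in WT, and gave -0.13 (SE 0.14). Probe sets of a gene are not replicates of the condition. The difference of the brightest was -1.11 to -0.63 with single arrays left out, and -0.58 when Sox9 KO replicate 1 was left out together with WT replicate 3, where the unadjusted p no longer passed 0.05, as it did not with the methods' t-test either. Rorb, its relative of the nervous system, averaged 4.20 ± 0.08 in Sox9 KO and 4.14 ± 0.13 in WT (SD, n = 3 each).

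Of the steroid receptors kept in the list, none was above the bar on all arrays of a genotype. Nr3c1, the glucocorticoid receptor, averaged 7.72 ± 0.21 in Sox9 KO and 7.96 ± 0.13 in WT, and the mineralocorticoid receptor Nr3c2 averaged 7.61 ± 0.79 in Sox9 KO and 7.55 ± 0.26 in WT (SD, n = 3 each). Their differences were -0.24 (SE 0.16) and 0.06 (SE 0.36), and with single arrays left out they ranged from -0.37 to -0.17 for Nr3c1 and from -0.30 (Sox9 KO replicate 2 left out) to 0.48 (Sox9 KO replicate 3 left out) for Nr3c2. Esr2, the oestrogen receptor beta, averaged 5.15 in Sox9 KO and 5.13 in WT and was not above the bar on any array. Thus no steroid receptor of the list passed an unadjusted p under 0.05.

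All 10 listed glucocorticoid receptor targets were measured, with a median difference of -0.07. At an unadjusted p under 0.05, 1 was lower and 1 higher, against 4.99% and 4.28% of all probe sets. Errfi1, a feedback inhibitor of the EGF receptor, read 10.04, 10.99 and 11.14 in Sox9 KO and 11.46, 11.87 and 11.83 in WT, 2-fold lower (SE 0.29 on the log2 scale). Tsc22d3, which encodes the glucocorticoid-induced leucine zipper protein GILZ, read 9.05, 9.10 and 8.84 in Sox9 KO and 7.79, 7.83 and 8.84 in WT, a difference of 0.84 (SE 0.28). These targets of the same receptor lay in opposite directions, and in Tsc22d3 the highest WT array met the lowest Sox9 KO array. Fkbp5, Per1, Sgk1 and Klf9 had differences of -0.22, -0.16, -0.05 and -0.09.

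The NR2 family and the HNF4 receptors are mostly orphans that repress or bind constitutively, and 8 of 9 were measured. Nr2f6, an orphan of the COUP-TF group, read 8.72, 8.80 and 8.55 in Sox9 KO and 7.86, 8.44 and 8.80 in WT. The difference was 0.32 (SE 0.24), with overlap through WT replicate 3, the array with high ER-positive markers, and 0.54 without that array (adjusted p 0.552 in limma). It was 0.07 without WT replicate 1, the lowest WT array. Nr2c2, the testicular receptor TR4, read 8.56, 8.55 and 7.80 in Sox9 KO and 8.59, 8.75 and 8.56 in WT, a difference of -0.33 (SE 0.22), and of -0.08 with the low Sox9 KO replicate 3 left out. Its relative Nr2c1 averaged 7.57 ± 0.50 in Sox9 KO and 7.54 ± 0.18 in WT (SD, n = 3 each), below the bar.

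The COUP-TF genes Nr2f1 and Nr2f2, regulators of organ and vessel development, averaged 5.92 and 6.67 in Sox9 KO and 5.91 and 6.33 in WT. The neural receptor Nr2e1 averaged 3.85 in Sox9 KO and 4.04 in WT. Hnf4a and Hnf4g, regulators of liver and gut epithelium, averaged 4.85 and 3.47 in Sox9 KO and 4.89 and 3.47 in WT. None of these 5 was above the bar on any array, and none passed an unadjusted p under 0.05.

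The NR4A receptors are orphans whose ligand pocket is filled by side chains, and they act through how much of them is made, as immediate-early genes that stimulation induces quickly. Nr4a1 read 7.55, 8.04 and 8.83 in Sox9 KO and 8.26, 8.45 and 8.64 in WT. Nr4a3 read 7.75, 7.87 and 9.17 in Sox9 KO and 8.62, 8.44 and 8.96 in WT. For both genes Sox9 KO replicates 1 and 2 lay below all WT arrays and replicate 3 above them. The differences were -0.31 (SE 0.30) for Nr4a1 and -0.41 (SE 0.36) for Nr4a3. Without Sox9 KO replicate 3 they were -0.66 and -0.86 (adjusted p 0.275 and 0.159 in limma, unadjusted p under 0.05), while leaving out Sox9 KO replicate 1 gave -0.01 and -0.15, so that 1 array decided each value.

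Nr4a2, the third member, lay the other way. It read 7.96, 7.86 and 8.13 in Sox9 KO and 7.76, 7.41 and 7.79 in WT, without overlap, with a difference of 0.33 (SE 0.16, adjusted p 0.579 in limma). It exceeded the bar only on Sox9 KO replicate 3, and its difference was 0.21 to 0.41 with arrays left out.

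**Figure D4:**
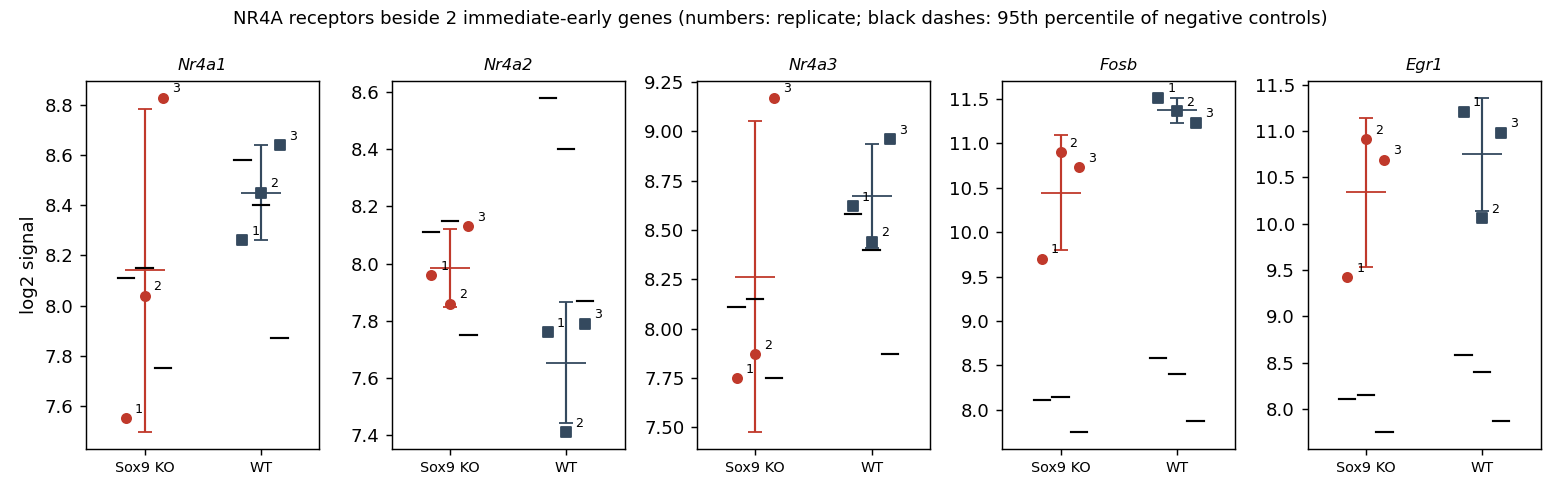
Log2 signal (vertical axis, a separate range in each panel) of Nr4a1, Nr4a2 and Nr4a3 and of the immediate-early genes Fosb and Egr1 on each array, Sox9 KO on the left and WT on the right; digits give the replicate, lines and bars the mean ± SD of 3 arrays, and black dashes the 95th percentile of the negative controls. Sox9 KO replicate 3 is the highest of its group for all 3 NR4A genes but not for Fosb or Egr1, and Sox9 KO replicate 1 is the lowest of its group for Nr4a1, Nr4a3, Fosb and Egr1.

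The other immediate-early genes were set beside them. Of 18 listed and measured, 8 were lower and 0 higher at an unadjusted p under 0.05, against 4.99% and 4.28% of all probe sets, 0 passed the adjusted threshold in limma, and the median difference was -0.50. Fosl1, an AP-1 subunit, read 9.40, 9.97 and 10.09 in Sox9 KO and 10.69, 11.07 and 10.42 in WT. Fosb, another AP-1 subunit, read 9.70, 10.90 and 10.73 in Sox9 KO and 11.51, 11.36 and 11.23 in WT. The arrays of the genotypes did not overlap for the 8 lower genes, Fosl1 and Fosb among them, against 14.1% of all probe sets. For the rest of the 18, Fos and Egr1 among them, they overlapped, as for Nr4a1 and Nr4a3. The mean level of the 18 genes relative to the WT mean was -0.98, -0.20 and -0.20 on the Sox9 KO arrays and -0.02, -0.10 and 0.13 on the WT arrays, lowest on Sox9 KO replicate 1, which was also lowest for Rara, Rora, Nr4a1 and Nr4a3.

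Of the oestrogen-related receptors, which control mitochondrial genes without a known hormone, Esrrb and Esrrg were measured. Esrrg averaged 6.02 ± 0.15 in Sox9 KO and 5.64 ± 0.59 in WT (SD, n = 3 each), below the bar on all arrays. The wide WT spread came from replicate 3 at 6.33, with the other WT arrays both at 5.30. Without WT replicate 3 the difference was 0.72, against 0.37 with it, and the unadjusted p then passed 0.05 (adjusted p 0.353 in limma). It was 0.20 without WT replicate 1 and likewise without WT replicate 2. Esrrb, known from pluripotent and placental cells, averaged 3.81 in Sox9 KO and 3.91 in WT.

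Of 9 targets of the oestrogen-related receptors 7 were measured, with a median difference of 0.16. At an unadjusted p under 0.05, 1 was lower and 0 higher, against 4.99% and 4.28% of all probe sets. Vegfa, the vascular growth factor, was the lower one, at 9.05, 9.17 and 9.41 in Sox9 KO and 9.70, 9.91 and 9.70 in WT, a difference of -0.56 (SE 0.15). The respiratory chain genes Cox5b, Atp5b and Cycs had differences of 0.21, 0.16 and -0.10.

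Nr6a1, the germ cell nuclear factor that silences pluripotency genes during development, was the detected member of the last group. It read 8.84, 9.26 and 9.18 in Sox9 KO and 9.27, 9.61 and 9.28 in WT. The groups did not overlap, but Sox9 KO replicate 2 and WT replicate 1 differed by little, and the difference was -0.29 (SE 0.17, adjusted p 0.65 in limma), or -0.17 without Sox9 KO replicate 1 and -0.18 with WT replicate 2 left out. Nr5a1 and Nr5a2, regulators of steroid-making and of liver and gut cells, averaged 5.44 and 5.01 in Sox9 KO and 5.40 and 4.99 in WT. The receptors without a DNA-binding domain, Nr0b1 and Nr0b2, act as repressors of other receptors. Nr0b1 averaged 3.92 in Sox9 KO and 3.79 in WT, and Nr0b2 averaged 5.14 ± 0.15 in Sox9 KO and 5.42 ± 0.02 in WT (SD, n = 3 each). The Nr0b2 arrays did not overlap, at a level below the bar throughout, with a difference of -0.28 (SE 0.13) and of -0.36 without Sox9 KO replicate 3, where the unadjusted p passed 0.05.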

How the data were processed

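Total RNA from sorted cells was labelled and hybridised to 6 Affymetrix Clariom S Pico arrays. The authors processed the scans with Expression Console and Transcriptome Analysis Console 4.0.1 and deposited the results as log2 values to 2 decimals. How background was corrected and arrays were normalized is not given in the sources used here. The log2 scale was read from the values. The table held 28846 probe sets, of which 6640 were array controls. Of the 22206 tested, 19572 had 1 symbol in the platform annotation, 0 several and 2634 none. Where a gene had several probe sets, the brightest on average represented it. Depth is limited by the number of arrays.

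The comparison of genotypes used lmFit and eBayes of limma 3.58.1 under R 4.3.3, two-sided and without covariates. The p-values of the 22206 probe sets were adjusted by Benjamini-Hochberg, with calls at under 0.05. Differences are Sox9 KO minus WT. The bar for detection was the 95th percentile of 5222 negative control probe sets on each array. The fit was tested on simulated data. Upstream windows came from a RefSeq table on GRCm38.p6, which lists 250 bases before and 50 after each start, and the bases after the start were left out.

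The receptors and the target, coregulator and marker lists were chosen with earlier results of these data known. Every receptor is named; values on each array are given for those detected in a genotype, those with an unadjusted p under 0.05 and those over 1.5-fold without overlap, and of the target lists up to 4 genes with the smallest p. Values of the other NR4A genes, of Fabp4, Fkbp5, Per1, Sgk1, Klf9, Atp5b and Cycs go beyond this rule and were chosen after values were seen. So do those of Egr1 in the figure of the NR4A genes. Cyp24a1, Cyp26b1 and Cox5b fall within the rule but were also chosen after values were seen. The fit was repeated with median centring, with quantile normalization, with array weights, with a trended robust variance, without the dimmer probe sets, with a replicate block, with the mean over probe sets, with the methods' t-test and with each array left out, and detection with other bars.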

Additional observations from a re-analysis of the deposited data

How the results depend on the processing

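The limits of 3 arrays per genotype and of dim signals bear on every value. So does the spread of the Sox9 KO arrays. They correlated with each other at 0.969 to 0.983, WT arrays at 0.984 to 0.988 and arrays across genotypes at 0.967 to 0.984. In the fit with array weights, Sox9 KO replicates 3 and 1 had the lowest weights, 0.58 and 0.76. Rara, Rora, Pparg and Rxrg kept the sign of their difference under every alternative that gave a value, and Rxrg had none without the dimmer probe sets. With the methods' t-test Rara, Rora and Pparg lost an unadjusted p under 0.05, and the 3 receptors that passed were Rxrg, Nr1h4 and Nr0b2. By that test 7.75% of all probe sets passed. The number of receptors with an unadjusted p under 0.05, 4 as reported, was 4 to 8 with each array left out, with 8 without Sox9 KO replicate 3. The share of all probe sets, 9.26% as reported, was then 5.63% to 12.6%, and it too was highest without Sox9 KO replicate 3. Probe sets past the adjusted threshold, 2 as reported, were 0 with the replicate block, 0 with the methods' t-test, and 0 to 20 with each array left out, being 20 (replicate 3), 11 (replicate 1) and 1 (replicate 2) for the Sox9 KO arrays and 0 for any 1 of the WT arrays. Probe sets over 2-fold with an unadjusted p under 0.05, 252 as reported, were 143 with the methods' t-test and 213 to 577 with each array left out, 577 without Sox9 KO replicate 3. Detected receptors, 9 at the 95th percentile, were 14 at the 90th, 2 at the 99th and 19 above the median of the tested probe sets. The cause of these moves was not tested. Whether same-numbered arrays share a litter or day is not stated in the sources used here. Deviations of same-numbered arrays correlated at 0.119, -0.0336 and 0.0335, and 1 of 3 Sox9 KO arrays matched its own number best. With 3 arrays per genotype these values can neither show nor exclude a shared batch. With the replicate block 5 receptors had an unadjusted p under 0.05, against 9.88% of all probe sets, Rxra being the added one. Leaving out Sox9 KO replicate 1 and WT replicate 3 together was chosen after seeing the data. It gave 4 such receptors, with Esrrg in and Rora out, against 7.89% of all probe sets.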

Other observations

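Coregulators, the proteins through which ligand-bound or empty receptors act on chromatin, were read in the same fit. All 15 listed coactivators were measured, with 0 past the adjusted threshold in limma and a median difference of -0.06. At an unadjusted p under 0.05, 1 was lower and 0 higher, against 4.99% and 4.28% of all probe sets. The lower one was Ncoa4, a receptor coactivator that also delivers ferritin for degradation, at 9.99, 10.28 and 9.95 in Sox9 KO and 10.42, 10.63 and 10.30 in WT, a difference of -0.38 (SE 0.16). Its arrays did not overlap. The histone acetyltransferase genes Crebbp and Ep300 had differences of -0.02 (SE 0.14) and 0.06 (SE 0.14). Ncoa7 varied most between WT animals, at 8.61, 8.28 and 9.04 in Sox9 KO and 8.66, 7.33 and 9.47 in WT. Ncoa7, Crebbp and Ep300 were chosen after their values were seen.

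Of 10 listed corepressors 8 were measured, and 0 were lower and 0 higher at an unadjusted p under 0.05, with a median difference of 0.04. Hdac3, the deacetylase of the NCoR and SMRT complexes, read 10.89, 10.72 and 10.23 in Sox9 KO and 10.39, 10.28 and 10.29 in WT, a difference of 0.29 (SE 0.19). Tbl1xr1, another subunit of those complexes, read 8.79, 8.15 and 7.06 in Sox9 KO and 7.43, 7.39 and 7.70 in WT, so that Sox9 KO replicate 3 lay below all WT arrays and the other Sox9 KO arrays above them.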
